A study of Mus musculus with 3 samples.

Results

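The 9 genes described here are targets of the transcription factor p53: Cdkn1a, Mdm2, Gadd45a, Sesn2, Phlda3, Ccng1, Bax, Trp53inp1 and Zmat3. They were taken by symbol from the 32285 genes of a single-cell RNA-seq study of mouse back skin, and all 9 were found as 1 row each. Their unique transcript counts (UMIs) were summed over the cells of each cell class in each of 3 libraries. The study compared Piezo1 knockout skin with control skin, 1 library per group, in C57BL/6 mice. The 2-week knockout library came from K5-Cre-er/Piezo1fl/fl/Tdfl/+ skin at postnatal day 62. The 3-week knockout library came from K5-Cre-er/Piezo1fl/fl/Tdfl/fl skin at postnatal day 71. The control library came from K5-Cre-er/Piezo1fl/+/Tdfl/+ skin at postnatal day 62, so it carried the driver and 1 floxed Piezo1 allele. All groups had tamoxifen from day 48 to day 52, and the K5-Cre-er driver acts in cells that express keratin 5, the basal cells of the epithelium. No control of day 71 was analysed here, and the 3-week knockout also differed in its Td alleles, so age, Td genotype and time after knockout cannot be told apart. How many mice went into each library is not stated. With 1 library per group no difference has a replicate check, no test was made, and every interval is a 95% interval that covers counting error only.

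p53 is held low by the ubiquitin ligase that its own target Mdm2 encodes, and it accumulates when DNA is damaged or cells are stressed. Its targets then slow the cell cycle, aid repair, limit growth signalling or start apoptosis. In keratinocytes several of them are also switched on without p53: Cdkn1a accompanies exit from the cell cycle during differentiation, and Sesn2 and Gadd45a answer to other stress factors as well.

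The genes lie on 8 chromosomes of the mm10 build. Cdkn1a is at chr17:29090976-29100727 on the plus strand, Mdm2 at chr10:117688875-117710758 on the minus strand, Gadd45a at chr6:67035096-67037457 on the minus strand and Sesn2 at chr4:132492032-132510501 on the minus strand. Phlda3 is at chr1:135766119-135769136 on the plus strand, Ccng1 at chr11:40748552-40755311 on the minus strand and Bax at chr7:45461697-45466898 on the minus strand. Trp53inp1 is at chr4:11156431-11174379 on the plus strand and Zmat3 at chr3:32334792-32366014 on the minus strand. Bax is an uncertain count, because 145 of the 1042 words of 50 bases at its 3' end were shared with the overlapping gene Gm45808. Sesn2 overlapped Gm12981 on its own strand, with no shared word.

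Promoter sequences in the RefSeq table (GRCm38.p6) covered 7 of the 9 genes, with 2 starts for Cdkn1a. Windows of 300 bases, 250 before and 50 after the start, were searched for the p53 half-site consensus, which reads the same on both strands. It was found at least once in 5 of those 7 genes, and in 8.36% of all 32851 promoter windows. The windows of Sesn2, Phlda3 and the second Cdkn1a start held no match. The 250 bases before the start are shown for the 5 genes with a match, since p53 is known to bind pairs of such half-sites, with each half-site in capitals. They run 5' to 3' on the strand of the gene, at chr17:29090729-29090978 for Cdkn1a, chr10:117710759-117711008 for Mdm2, chr6:67037408-67037657 for Gadd45a, chr11:40755287-40755536 for Ccng1 and chr7:45466899-45467148 for Bax.
Cdkn1a: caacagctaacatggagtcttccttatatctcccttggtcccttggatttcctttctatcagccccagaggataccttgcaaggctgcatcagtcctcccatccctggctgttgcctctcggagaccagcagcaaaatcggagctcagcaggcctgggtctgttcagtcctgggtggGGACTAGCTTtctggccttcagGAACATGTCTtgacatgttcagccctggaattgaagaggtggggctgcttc
Mdm2: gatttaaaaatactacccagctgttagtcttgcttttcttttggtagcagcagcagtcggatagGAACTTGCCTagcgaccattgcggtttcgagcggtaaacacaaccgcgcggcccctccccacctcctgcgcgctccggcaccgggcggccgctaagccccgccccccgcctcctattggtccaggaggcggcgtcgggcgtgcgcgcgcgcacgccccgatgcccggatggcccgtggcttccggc
Gadd45a: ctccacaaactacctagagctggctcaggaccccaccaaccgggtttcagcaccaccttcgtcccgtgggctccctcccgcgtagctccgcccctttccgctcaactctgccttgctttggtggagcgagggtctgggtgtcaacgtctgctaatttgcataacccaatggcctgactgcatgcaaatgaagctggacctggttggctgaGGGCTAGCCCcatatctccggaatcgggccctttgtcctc
Ccng1: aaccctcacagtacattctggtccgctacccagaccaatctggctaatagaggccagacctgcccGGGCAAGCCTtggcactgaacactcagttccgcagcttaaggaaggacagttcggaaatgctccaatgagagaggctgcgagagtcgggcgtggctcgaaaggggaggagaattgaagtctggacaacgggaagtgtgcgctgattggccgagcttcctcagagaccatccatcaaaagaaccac
Bax: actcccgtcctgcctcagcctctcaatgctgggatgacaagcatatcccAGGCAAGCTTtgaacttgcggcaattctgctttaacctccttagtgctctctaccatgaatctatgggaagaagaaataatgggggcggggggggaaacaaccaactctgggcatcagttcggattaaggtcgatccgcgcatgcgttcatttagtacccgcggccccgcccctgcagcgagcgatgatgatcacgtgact
Cdkn1a held 2 half-sites 12 bases apart, which began 73 and 51 bases before the start. A pair with a spacer of at most 13 bases was found in 24 of the 32851 windows, or 0.0731%. The 10 bases that follow the second half-site of Cdkn1a differ from the consensus at 1 position. The single matches began 186 bases before the start in Mdm2, 40 in Gadd45a, 185 in Ccng1 and 201 in Bax. The AP-1 motif TGANTCA, searched on both strands, was in none of the 8 windows and in 7.81% of all windows. A match is a run of letters, not a measured binding site.

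The 2-week knockout, 3-week knockout and control libraries kept 9568, 9637 and 4899 cells, with medians of 7502, 8793 and 9985 UMIs per cell. From 17 to 29 cell barcodes were shared by each pair of libraries. Cells were clustered together, and clusters were called alike to a cell type from marker genes. Basal-like cells held all 8 basal markers in every library, at summed levels of 24763, 27873 and 24713 CPM, the usual scaling of a gene's UMIs by all UMIs of the class, in the 2-week knockout, the 3-week knockout and control. Bulge-like cells were 31.6% of the 2-week knockout cells, 9.51% of the 3-week knockout cells and 10.9% of the control cells. Piezo1, the mechanically gated channel that the labels name, stood at 22.9, 15.1 and 33.0 CPM in basal-like cells of the 2-week knockout, 3-week knockout and control. The lower values were not particular to the epithelium. In the same order, dermal papilla or sheath-like cells had 58.3, 47.9 and 103.8 CPM and fibroblast-like cells 55.7, 40.2 and 64.45 CPM. Which exons are floxed is not stated in the labels. A 3' tag outside them would still be counted, so these values do not check the labels.

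Ratios of CPM were ranked where both libraries held 50 cells or more of the class and their UMIs of the gene came to 50 or more together. A ranked ratio past 1.5-fold in either direction was counted as a difference. Of 92 ranked pairs of a member and a class at 2 weeks, 13 were lower than control (14.1%) and 3 were higher (3.26%). Over all genes 7.07% of such pairs were lower and 8.61% higher. At 3 weeks 28 of 120 pairs were lower (23.3%) and 8 higher (6.67%), against 10.8% lower and 12.1% higher over all genes. Both comparisons share the control library, so they are not independent of each other. Pairs within a comparison come from the same libraries, and 1 gene counts in many classes, so they are not independent either. Most lower pairs were of Cdkn1a, Mdm2, Gadd45a and Sesn2. These genes were lower in 1, 2, 5 and 4 classes at 2 weeks, and in 6, 5, 7 and 9 at 3 weeks. Between the knockouts, 6 of 96 pairs were lower at 3 weeks than at 2 weeks (6.25%) and 8 were higher (8.33%), against 6.39% lower and 7.04% higher over all genes.

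The members did not move as 1 block. Cdkn1a, Mdm2, Gadd45a and Sesn2 were below control in most classes, and the other 5 were near or above it. This grouping was made after the values were seen and has no test. The median ratios over the ranked classes were 0.772, 0.745, 0.636 and 0.75 for Cdkn1a, Mdm2, Gadd45a and Sesn2 at 2 weeks, and 0.733, 0.781, 0.683 and 0.622 at 3 weeks. Phlda3, Ccng1, Bax, Trp53inp1 and Zmat3 had medians of 1.23, 1.05, 1.11, 1.09 and 1.19 at 2 weeks. At 3 weeks their medians were 1.14, 1.19, 1.11, 1.13 and 1.31.

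**Figure D1:**
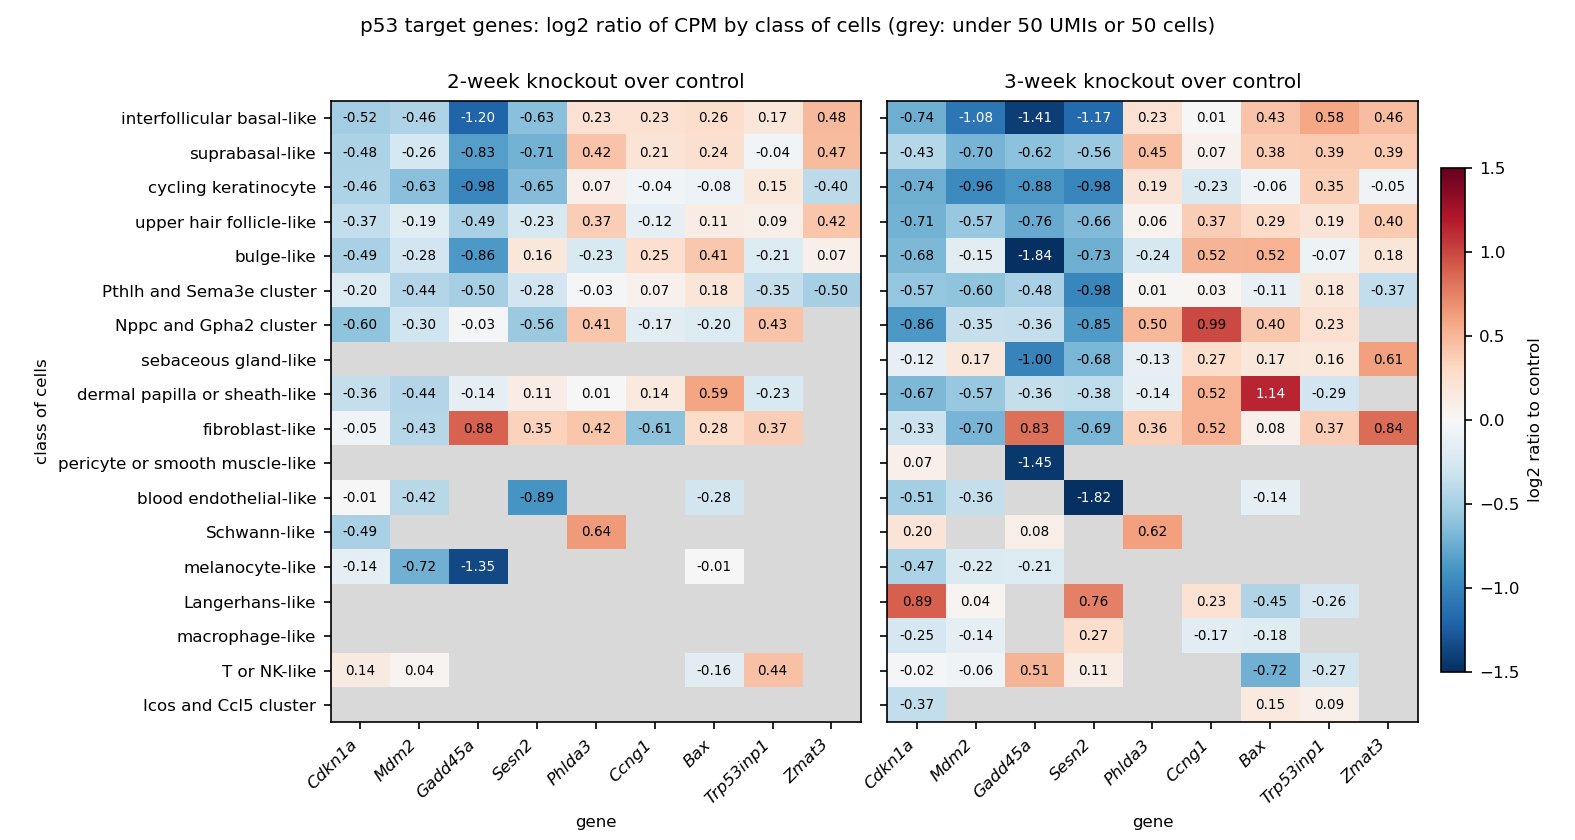
Log2 ratio of CPM for each p53 target gene (columns) and class of cells (rows), for the 2-week knockout over control (left) and the 3-week knockout over control (right); blue is lower than control, red is higher, colour stops at 1.5 on the log2 scale and grey marks pairs that were not ranked. The left columns, from Cdkn1a to Sesn2, are mostly blue in epithelial rows, down to -1.84 for Gadd45a in bulge-like cells at 3 weeks, and the right columns are mostly pale or red.

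Cdkn1a encodes p21, the inhibitor of cyclin-dependent kinases that carries much of the p53 arrest. In interfollicular basal-like cells it stood at 962 CPM in the 2-week knockout, 828 CPM in the 3-week knockout and 1379 CPM in control. Both knockout libraries were below control, with ratios of 0.698 (0.683 to 0.713) at 2 weeks and 0.601 (0.588 to 0.613) at 3 weeks. Suprabasal-like cells had the highest Cdkn1a of all classes, at 1807, 1872 and 2513 CPM in the 2-week knockout, 3-week knockout and control. Control was also the highest library in bulge-like cells, at 1085 and 953 CPM in the 2-week and 3-week knockouts against 1525 CPM in control, and in upper hair follicle-like cells, at 1275 and 1012 CPM against 1652 CPM. Outside the epithelium, dermal papilla or sheath-like cells had 1475 and 1193 CPM in the knockouts against 1898 CPM in control. Cdkn1a was under control in 12 of 13 ranked classes at 2 weeks and in 15 of 18 at 3 weeks, past 1.5-fold in 1 and in 6 of them. The 1 at 2 weeks was the unnamed cluster led by Nppc and Gpha2, at a ratio of 0.659, and 5 alternatives end that call, with 0.6684 to 0.6883. Langerhans-like cells went the other way at 3 weeks, with 1525 CPM in the 3-week knockout and 821 CPM in control, a ratio of 1.86 (1.70 to 2.04). The 9 suprabasal markers summed to 11314 CPM in those Langerhans-like cells of the 3-week knockout and to 3154 CPM in control, and 14 of 18 immediate early genes were past 1.5-fold higher and 0 lower there, where 17.4% of all genes were higher. Fos had 1726 CPM in those cells of the 3-week knockout and 621 CPM in control. The part of either in the Cdkn1a value was not tested. The ratio was 1.425 when each cell weighed the same, which ends the call.

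Mdm2, the ligase that marks p53 for degradation, was also highest in suprabasal-like cells, at 228, 168 and 273 CPM in the 2-week knockout, 3-week knockout and control. In basal-like cells it stood at 149.5, 97.2 and 205.6 CPM. The 3-week knockout was the lowest library in both classes, with basal ratios of 0.727 (0.687 to 0.769) at 2 weeks and 0.473 (0.4463 to 0.5004) at 3 weeks. Cycling keratinocytes had 92.7, 74.1 and 143.8 CPM in the 2-week knockout, 3-week knockout and control, past 1.5-fold in both comparisons, although the 2-week ratio was 0.733 with cells thinned to 2000 UMIs. Bulge-like cells differed less, with 62.9, 68.9 and 76.6 CPM.

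Gadd45a, a small protein that binds PCNA and p21 and joins repair with arrest, showed the largest differences of the 9 in basal-like cells. It stood at 156.9 CPM in the 2-week knockout, 135.4 CPM in the 3-week knockout and 359.5 CPM in control. Both knockouts were far below control, at a ratio of 0.436 (0.416 to 0.458) for the 2-week library and 0.377 (0.360 to 0.394) for the 3-week library. These class ratios also hold a difference in the mix of clusters. Within each basal-like cluster, described below, the ratio to control was higher than for the class. Bulge-like cells had 25.1, 12.7 and 45.5 CPM in the 2-week knockout, 3-week knockout and control, and the 3-week value rested on 64 UMIs, with a ratio of 0.2799 (0.207 to 0.374). Fibroblast-like cells were the only ranked class as a whole with Gadd45a past 1.5-fold higher, with 55.7 CPM in the 2-week knockout, 53.7 CPM in the 3-week knockout and 30.2 CPM in control. Both knockouts were above control there, at ratios of 1.85 (1.32 to 2.56) and 1.78 (1.43 to 2.22), in a class where the median of all genes was also above control by 0.11 and 0.21 on the log2 scale. The difference was in the Col1a2 and Dcn cluster, at 89.3 CPM in the 2-week knockout, 58.6 CPM in the 3-week knockout and 28.6 CPM in control. In the Coch and Fmod cluster the values were 32.2, 29.2 and 34.8 CPM. The 9 suprabasal markers in fibroblast-like cells summed to 1099, 815 and 149.95 CPM in the 2-week knockout, 3-week knockout and control, and 15 and 14 of 18 immediate early genes were past 1.5-fold higher at 2 and 3 weeks; the part of either in the Gadd45a value was not tested. With each cell thinned to 2000 UMIs the ratios were 1.471 and 1.215, which ends both calls.

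Sesn2, an antioxidant protein that restrains mTORC1 when amino acids run short, stood at 88.5, 60.7 and 136.7 CPM in basal-like cells of the 2-week knockout, 3-week knockout and control. It was below control in both knockouts, with a ratio of 0.647 (0.603 to 0.695) for the 2-week library and 0.444 (0.413 to 0.477) for the 3-week library, and the first is close to the 1.5-fold limit: it was 0.671 to 0.7055 under 4 alternatives, which ends that call. In suprabasal-like cells the values were 94.2, 104.4 and 153.7 CPM. In bulge-like cells only the 3-week knockout was low, at 30.3 CPM, against 56.2 CPM in the 2-week knockout and 50.1 CPM in control. Blood endothelial-like cells had 36.5, 19.1 and 67.3 CPM, from 25, 15 and 48 UMIs in the 2-week knockout, 3-week knockout and control. The 3-week ratio there was 0.284 (0.148 to 0.515), or 0.4465 when each cell weighed the same. In these cells the 9 suprabasal markers summed to 801, 761 and 121 CPM in the 2-week knockout, 3-week knockout and control, and the 7 fibroblast markers to 1578, 1326 and 3016 CPM, and their part in the Sesn2 value was not tested. Langerhans-like cells had 63.8 CPM in the 3-week knockout against 37.7 CPM in control, a ratio of 1.69 that was 1.43 when each cell weighed the same.

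**Figure D2:**
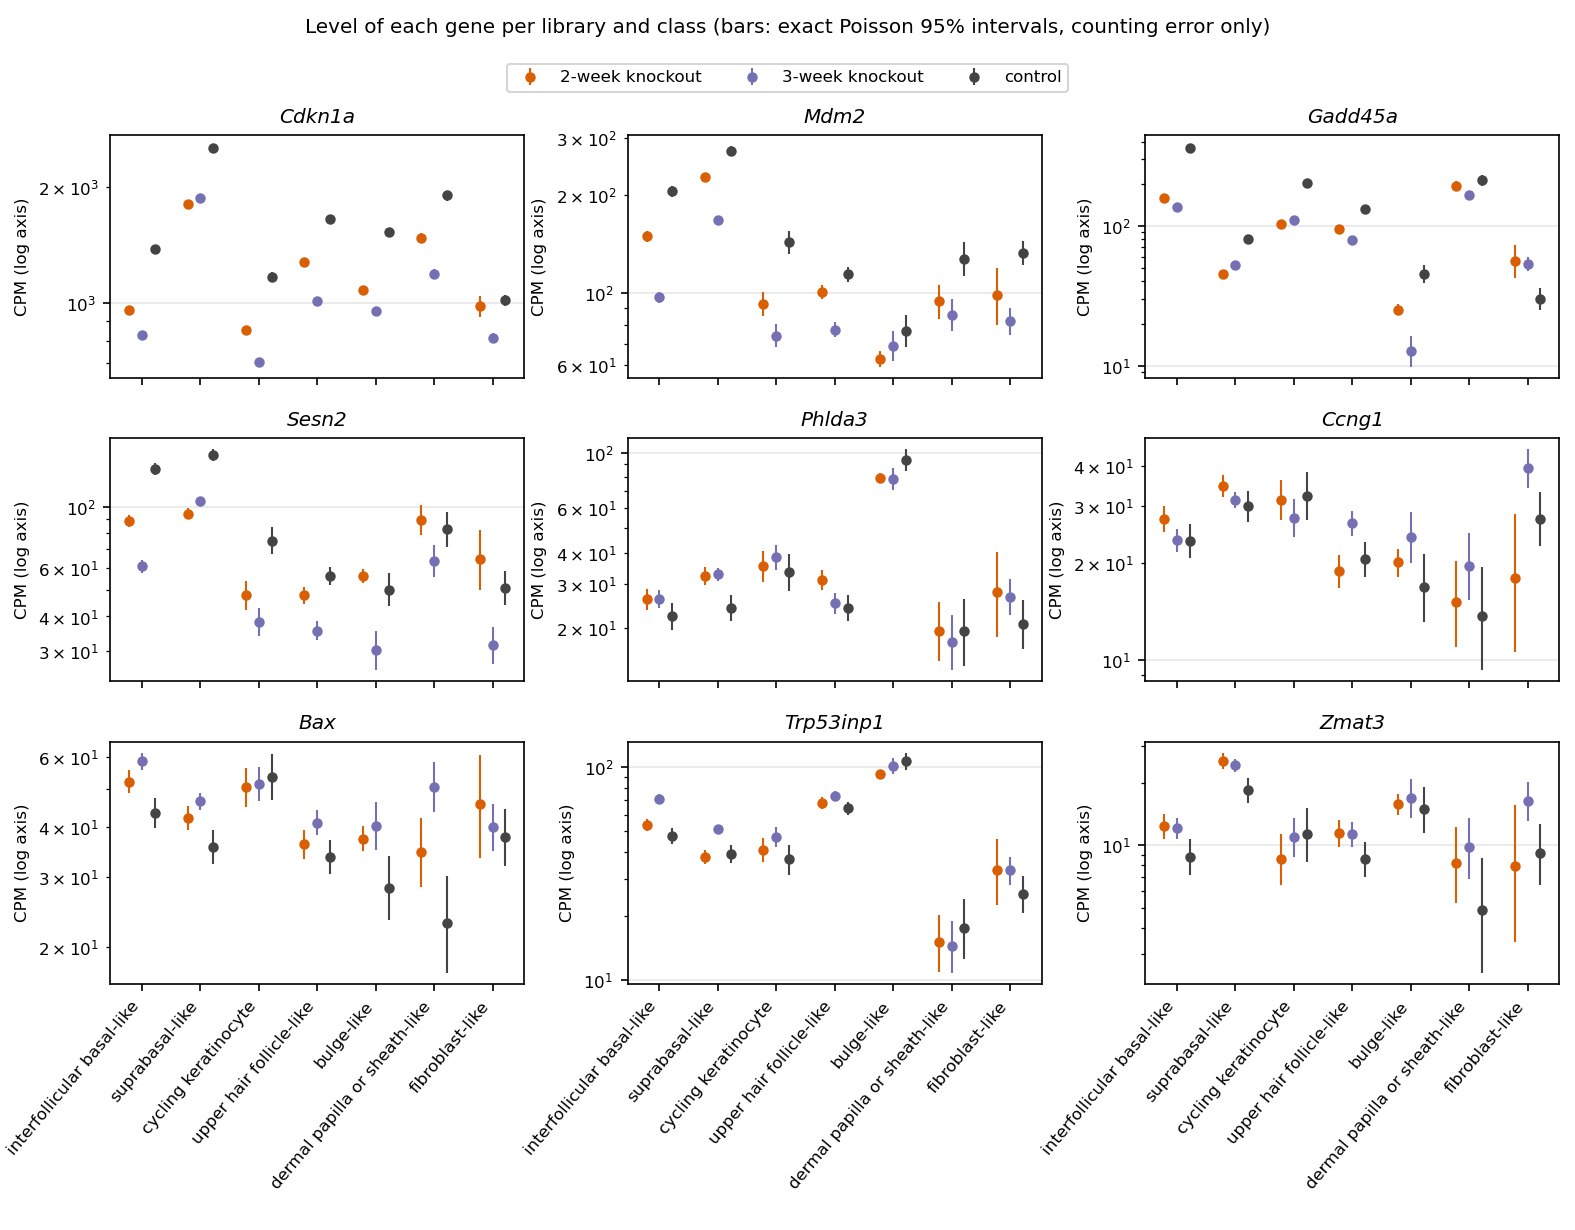
CPM on a log axis of each of the 9 genes in 7 classes (x axis) in the 2-week knockout, 3-week knockout and control libraries, drawn left to right in each class, with exact Poisson 95% intervals for counting error only. For Cdkn1a, Mdm2, Gadd45a and Sesn2 the control point is the highest in basal-like cells (1379, 205.6, 359.5 and 136.7 CPM), and Gadd45a in fibroblast-like cells has control lowest (30.2 CPM).

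Phlda3, a small pleckstrin-homology protein that competes with Akt for membrane lipids, had 26.1, 26.2 and 22.3 CPM in basal-like cells of the 2-week knockout, 3-week knockout and control. It was highest in Schwann-like cells, at 153.7 and 151.6 CPM in the 2-week and 3-week knockouts against 98.7 CPM in control, from 56, 61 and 26 UMIs. Those ratios, 1.56 (0.962 to 2.58) and 1.54 (0.956 to 2.53), have intervals that include 1, and were 1.379 and 1.356 with doublets kept, which ends both calls. Next came 2 unnamed clusters, led by Pthlh and Sema3e and by Nppc and Gpha2, at means of 95.3 and 86.9 CPM over the libraries. Bulge-like cells had 79.2, 78.8 and 93.2 CPM.

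Ccng1, cyclin G1, which recruits the phosphatase PP2A to Mdm2, stood at 27.4, 23.5 and 23.4 CPM in basal-like cells of the 2-week knockout, 3-week knockout and control. Bax, the pore-forming protein of apoptosis, had 52.2, 58.6 and 43.5 CPM there, with ratios of 1.198 (1.07 to 1.34) and 1.35 (1.22 to 1.49). Neither gene passed 1.5-fold in basal-like, suprabasal-like, cycling, upper hair follicle-like or bulge-like cells. Ccng1 did so in fibroblast-like cells at 2 weeks, at 0.653 (0.373 to 1.08) from 18 UMIs in the knockout, and in the unnamed cluster led by Nppc and Gpha2 at 3 weeks, at 25.8 CPM in the 3-week knockout against 13 CPM in control. Bax did so in dermal papilla or sheath-like cells, at 34.7 and 50.6 CPM in the 2-week and 3-week knockouts against 23.0 CPM in control, with ratios of 1.51 (1.07 to 2.15) and 2.20 (1.61 to 3.06). The first of these was 1.13 when each cell weighed the same. T or NK-like cells, the class with the most Bax, had 128.6 CPM in the 3-week knockout and 211.8 CPM in control, a ratio of 0.607 (0.456 to 0.808), which was 0.814 with finer clusters.

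Trp53inp1, a nuclear protein that aids p53 phosphorylation and autophagy, had 53.7, 71.2 and 47.6 CPM in basal-like cells of the 2-week knockout, 3-week knockout and control. The 3-week ratio of 1.497 (1.36 to 1.65) stood just under the limit. Bulge-like cells, where it was highest among named epithelial classes, had 92.6, 101.5 and 106.9 CPM. Zmat3, an RNA-binding zinc finger protein, was at low levels, with 12.3, 12.1 and 8.81 CPM in basal-like cells and 25.5, 24.2 and 18.5 CPM in suprabasal-like cells. Both knockouts were above control in these classes, with ratios from 1.31 to 1.40. In fibroblast-like cells the 3-week ratio was 1.785 (1.197 to 2.713), from 86 UMIs in the 3-week knockout and 36 in control.

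Counted over the members, 2 of 9 were past 1.5-fold lower in basal-like cells at 2 weeks and 0 were higher, where 4.15% of 10372 genes were lower and 8.28% higher. At 3 weeks 4 of 9 were lower and 0 higher, where 8.60% of 10775 genes were lower and 14.6% higher. In suprabasal-like cells 2 of 9 were lower and 0 higher at each time, against 6.45% lower and 6.81% higher of all genes at 2 weeks and 8.98% and 11.1% at 3 weeks. With finer clusters Gadd45a in this class went from 0.563 to 0.669 at 2 weeks and from 0.650 to 0.731 at 3 weeks. Mdm2 in this class went from 0.616 to 0.709 at 3 weeks, and each of these changes ends the call. That class joined a cluster led by Krt1 and Mt4, with 673, 1025 and 348 cells in the 2-week knockout, 3-week knockout and control, and a cluster led by Lor and Lce1m, with 198, 422 and 71 beside another, smaller one. In the Krt1 and Mt4 cluster 2 members were lower and 1, Zmat3, higher at 2 weeks, against 5.62% lower and 9.87% higher of all genes. At 3 weeks 3 were lower and 1, Trp53inp1, higher there, against 8.48% and 13.9%. In the Lor and Lce1m cluster 0 members were lower or higher at 2 weeks, against 9.27% lower and 5.12% higher of all genes. At 3 weeks 1, Mdm2, was lower there and 0 were higher, against 9.28% and 7.94%.

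In cycling keratinocytes 3 of 9 were lower at 2 weeks and 4 at 3 weeks, and 0 were higher, against 5.81% lower and 5.76% higher of all genes at 2 weeks and 9.39% and 8.86% at 3 weeks. With cells thinned to 2000 UMIs the 2-week ratios of Mdm2 and Sesn2 there were 0.733 and 0.753. The 3-week ratio of Sesn2 went from 0.507 to 0.815, and thinning ends these calls. In upper hair follicle-like cells 0 of 9 passed at 2 weeks, and 3 were lower and 0 higher at 3 weeks, against 4.95% lower and 8.21% higher of all genes at 2 weeks and 9.11% and 11.6% at 3 weeks. Gadd45a there had 94.7 and 78.7 CPM in the 2-week and 3-week knockouts against 132.8 CPM in control. Its 3-week ratio went from 0.593 to 0.696 with clusters weighed as in control, and to 0.723 with cells thinned to 2000 UMIs. Sesn2 there went from 0.633 to 0.6668 at 3 weeks with another scaling of CPM. Each of these changes ends the call, that of Sesn2 narrowly. Of these follicle cells, a cluster led by Ccl27a and Sostdc1 held 573 of 1657 in the 2-week knockout, 571 of 1732 in the 3-week knockout and 101 of 984 in control. Within it 1 member was lower and 2 higher at 2 weeks, against 9.05% lower and 7.94% higher of all genes. At 3 weeks 2 were lower and 2 higher, against 9.91% and 8.88%. Gadd45a was 1 of the higher ones, at 68.8 and 53.9 CPM in the 2-week and 3-week knockouts against 31.6 CPM in control, where it had 26 UMIs.

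In bulge-like cells 1 of 9 was lower at 2 weeks and 3 at 3 weeks, and 0 were higher, against 5.14% lower and 8.73% higher of all genes at 2 weeks and 9.74% and 11.9% at 3 weeks. The bulge-like cells of the libraries lay in different clusters: the cluster led by Krt24 and Krt6a held 1701 of 3019 in the 2-week knockout, 242 of 916 in the 3-week knockout and 346 of 533 in control. With the clusters weighed as in control, Cdkn1a at 0.7335 and Sesn2 at 0.691 were no longer past the limit at 3 weeks. In dermal papilla or sheath-like cells 0 of 8 ranked members were lower and 1 higher at 2 weeks, and 1 was lower and 1 higher at 3 weeks, against 7.94% lower and 6.71% higher of all genes at 2 weeks and 9.52% and 14.1% at 3 weeks. In fibroblast-like cells 1 of 8 was lower and 1 higher at 2 weeks, and 2 of 9 were lower and 2 higher at 3 weeks, against 10.4% lower and 16.5% higher of all genes at 2 weeks and 4.79% and 19.2% at 3 weeks.

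Trp53, which encodes p53, stood at 83.3, 94.1 and 88.9 CPM in basal-like cells of the 2-week knockout, 3-week knockout and control. Its ratios of 0.937 (0.864 to 1.02) and 1.06 (0.983 to 1.14) had intervals that include 1. In fibroblast-like cells Trp53 had 66.6 and 52.9 CPM in the 2-week and 3-week knockouts against 41.9 CPM in control. The ratio of 1.59 (1.18 to 2.13) at 2 weeks was past 1.5-fold, from 67 UMIs in the 2-week knockout, and that of 1.26 (1.04 to 1.54) at 3 weeks was not.

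The basal-like class joined 2 clusters whose shares differed between libraries. Epgn led both of them. The cluster also led by Ifi202b and F3 held 860, 776 and 618 basal-like cells of the 2-week knockout, 3-week knockout and control. The cluster also led by Ndufa4l2 and Wnt4 held 603, 1098 and 150. In the first cluster Gadd45a had 219.1 and 225.4 CPM in the 2-week and 3-week knockouts against 413.9 CPM in control, and Sesn2 had 101.7 and 73.3 CPM against 152.4 CPM. Cdkn1a had 1121 and 1033 CPM against 1501 CPM, and Mdm2 had 179.7 and 115.4 CPM against 224.0 CPM. Of the 9 genes in the first cluster, 2 were past 1.5-fold lower and 1 higher at 2 weeks, where 3.79% of all genes were lower and 6.15% higher. At 3 weeks 4 were lower there, Gadd45a, Sesn2, Mdm2 and Phlda3, and 0 were higher, where 7.16% of all genes were lower and 9.3% higher. Cdkn1a did not pass the limit there. In the second cluster 0 passed in either direction at 2 weeks, where 6.14% of all genes were lower and 5.65% higher. At 3 weeks 2 were lower there, Phlda3 and Ccng1, and 1 was higher, where 11.5% of all genes were lower and 7.2% higher. There Cdkn1a had 679, 662 and 649.6 CPM in the 2-week knockout, 3-week knockout and control, with ratios of 1.05 (0.977 to 1.12) and 1.02 (0.957 to 1.09). Gadd45a stood at 45.9 and 62.4 CPM in the 2-week and 3-week knockouts against 34.85 CPM in control, and the 3-week ratio of 1.79 (1.37 to 2.38) was past the limit upward. The difference between the 2 clusters was not tested.

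The direction of Phlda3 depended on the mix of clusters. It had 10.4, 8.12 and 15.6 CPM in the first cluster and 54.1, 40.8 and 61.9 CPM in the second, in the 2-week knockout, 3-week knockout and control. Each knockout was below control within each cluster, although the class values were above control. With the 2 clusters weighed as in control, the class ratios of 1.17 and 1.17 became 0.749 and 0.575. The same weighting gave 0.711 for Cdkn1a at 3 weeks and 0.706 for Sesn2 at 2 weeks, which ends both calls, while Gadd45a and the 3-week values of Mdm2 and Sesn2 stayed past the limit.

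**Figure D3:**
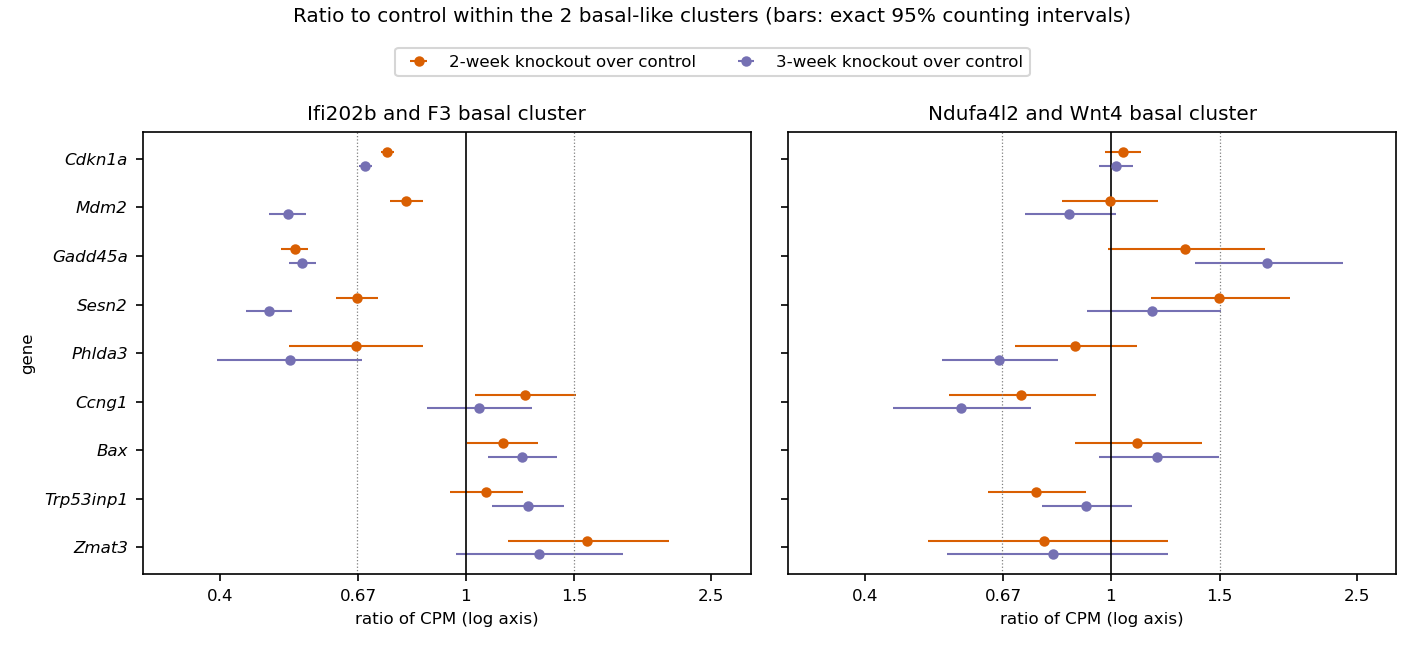
Ratio of CPM to control (log axis) of the 9 genes within the Ifi202b and F3 basal-like cluster (left) and the Ndufa4l2 and Wnt4 basal-like cluster (right), for the 2-week and 3-week knockouts, with exact 95% counting intervals; dotted lines mark 1.5-fold. Gadd45a lies near 0.529 and 0.545 on the left, and at 1.32 and 1.79 on the right.

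Other gene lists were set beside the members in basal-like cells. Of 34 other p53 targets ranked at 2 weeks, 5 were past 1.5-fold higher and 1 lower, and at 3 weeks 10 of 35 were higher and 1 lower. Over all genes in these cells 8.28% were higher and 4.15% lower at 2 weeks, and 14.6% and 8.6% at 3 weeks. The lower one was Kitl, the ligand of the Kit receptor, at 91.4 and 49.5 CPM in the 2-week and 3-week knockouts against 147.7 CPM in control. Triap1, an inhibitor of apoptosis, was higher, at 20.74 and 24.03 CPM against 11.9 CPM. Btg2, an antiproliferative gene that is also immediate early, was at 1015 CPM in the 3-week knockout against 460.1 CPM in control. The median log2 ratios of this list were 0.23 and 0.25, where those of all ranked genes were 0.08 and 0.10.

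The targets of ATF4, the factor of amino acid and endoplasmic reticulum stress, were the list with the lowest median. Of its 13 genes, which include Sesn2, 7 were lower and 0 higher at 2 weeks, and 8 were lower and 0 higher at 3 weeks, with medians of -0.63 and -0.82 on the log2 scale. Over all genes in basal-like cells 4.15% were lower and 8.28% higher at 2 weeks, and 8.6% and 14.6% at 3 weeks. Slc7a11, the cystine transporter, had 4.89 and 3.31 CPM in the 2-week and 3-week knockouts against 16.8 CPM in control. Chac1, which degrades glutathione, had 7.78 and 4.82 CPM against 23.8 CPM. Trib3, a pseudokinase that damps the same response, had 3.36 and 2.49 CPM against 9.76 CPM. Within the Ifi202b and F3 cluster 6 of the 13 were lower at 2 weeks and 8 at 3 weeks. Of all genes 3.79% and 7.16% were lower there. Within the Ndufa4l2 and Wnt4 cluster 0 of 8 ranked genes were lower at 2 weeks and 0 of 9 at 3 weeks. Of all genes 6.14% and 11.5% were lower there, so these counts are near the shares over all genes. Fewer of the 13 genes were ranked in this cluster, so the clusters are not compared on the same genes.

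Of the inhibitors of cyclin-dependent kinases and the G1 cyclins, 5 of 11 were higher at 2 weeks and 6 of 13 at 3 weeks, and 0 were lower. The shares over all genes in basal-like cells were 8.28% higher and 4.15% lower at 2 weeks, and 14.6% higher and 8.60% lower at 3 weeks. Cdkn2d, the kinase inhibitor p19, had 31.7 and 30.9 CPM in the 2-week and 3-week knockouts against 13.4 CPM in control, and Ccnd1, cyclin D1, had 121.2 and 156.6 CPM against 80.3 CPM. Of 12 ranked paralogs of the members 1 was higher and 1 lower at each time. Gadd45g was higher, at 25.4 and 29.4 CPM against 10.7 CPM, while Phlda1 was lower, at 560.2 and 392.7 CPM against 1399 CPM. DNA repair genes had 1 of 8 higher and 0 lower at each time. The counts of the paralogs and of the repair genes are near the shares over all genes. In the BCL2 family 2 of 8 ranked genes were higher at 2 weeks and 3 of 9 at 3 weeks, and 0 were lower. Of 16 ranked genes of the family and regulators of p53, 2 were higher and 0 lower at 2 weeks, and 2 were higher and 1 lower at 3 weeks, also near those shares. Trp73 was higher at both times, at 7.31 and 11.6 CPM in the 2-week and 3-week knockouts against 4.75 CPM in control.

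**Figure D4:**
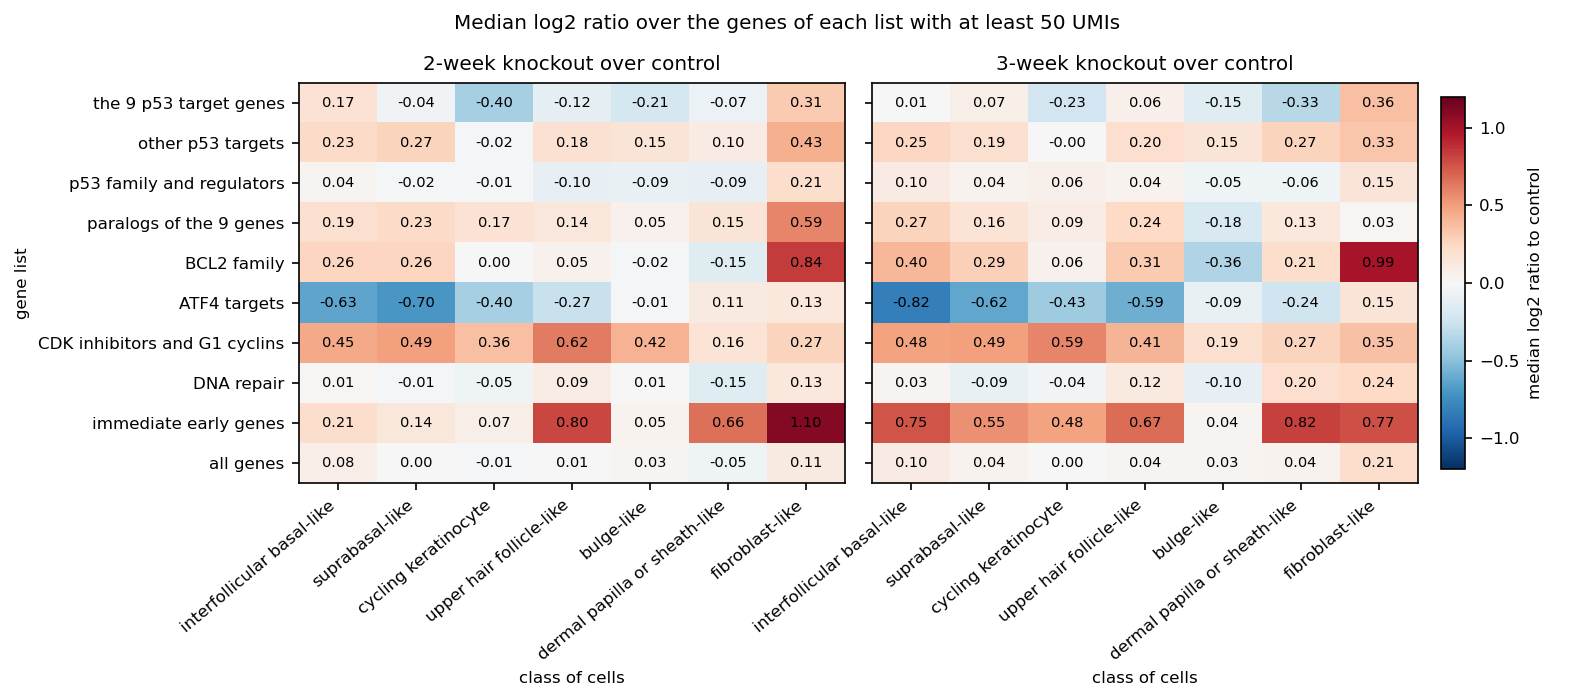
Median log2 ratio over the ranked genes of each list (rows) in 7 classes (columns), for the 2-week knockout over control (left) and the 3-week knockout over control (right). The ATF4 targets have the lowest medians in basal-like cells, at -0.63 and -0.82, and the 9 p53 target genes are at 0.17 and 0.01 there.

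Immediate early genes, which respond to tissue dissociation, also differed between libraries. In basal-like cells 4 of 18 were higher and 1 lower at 2 weeks, and 12 were higher and 0 lower at 3 weeks. Over all genes there 8.28% were higher and 4.15% lower at 2 weeks, and 14.6% and 8.6% at 3 weeks. Fos stood at 3110 and 4064 CPM in the 2-week and 3-week knockouts against 1362 CPM in control. Their part in the values of the members was not tested. Median depth also moved with the groups, at 11251, 12491 and 14935 UMIs per basal-like cell in the 2-week knockout, 3-week knockout and control.

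Across classes each gene had its own order of levels. Cdkn1a in suprabasal-like cells, at a mean of 2064 CPM with a range of 1807 to 2513 CPM over 3 libraries, did not overlap the class after it, blood endothelial-like cells at 1544 CPM. It was lowest in sebaceous gland-like cells, at 355 CPM. Gadd45a had its highest mean in basal-like cells, at 217 CPM with a range of 135 to 359 CPM, which overlapped dermal papilla or sheath-like cells at 189 CPM. Within a library, basal-like cells were below dermal papilla or sheath-like cells in the 2-week knockout, at 156.9 and 191.8 CPM, and in the 3-week knockout, at 135.4 and 165 CPM. They were above them in control, at 359.5 and 211.6 CPM. Mdm2 and Sesn2 were highest in suprabasal-like cells, at 223 and 117 CPM, and basal-like cells came after them at 151 and 95.3 CPM with overlapping ranges. Trp53inp1 was highest in the unnamed cluster led by Icos and Ccl5, at 229 CPM, and Bax in T or NK-like cells, at 177 CPM, each without overlap with the class after it. These 2 groups of cells followed each other, with Trp53inp1 at 163 CPM in T or NK-like cells and Bax at 120 CPM in the unnamed cluster. All 8 T or NK markers were found in that cluster. It was left unnamed because Mcpt4, a mast cell marker, was among its 10 leading genes and no T or NK marker was. Phlda3 ran from 135 CPM in Schwann-like cells to 2.56 CPM in Langerhans-like cells. The lowest Schwann-like library, at 98.7 CPM, was barely above the highest of the class after them, at 96.4 CPM. These ranges take no account of counting error. Ccng1 had its highest mean in sebaceous gland-like cells, at 53.9 CPM with a range of 48.9 to 58.9 CPM over 2 libraries. This overlapped the unnamed cluster led by Icos and Ccl5, at 46.7 CPM with a range of 34.1 to 59.2 CPM.

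Over 27 points, the 9 classes with at least 100 cells in every library times 3 libraries, the likeness of each gene to 5423 others was given by Pearson's r of log2(CPM + 5), as a description of points that share libraries and depth. Phlda3 was most like Lhx2, at 0.948, and Id1, at 0.920. Trp53inp1 was most like Slc7a6, at 0.920, Mdm2 most like Cpeb2, at 0.909, and Gadd45a most like Flvcr1, at 0.903. Cdkn1a was most like Fam129b, at 0.879, and Sesn2 most like Zfp800, at 0.826. Among the members, Mdm2 ran with Sesn2 at 0.78 and Cdkn1a with Sesn2 at 0.74, while Gadd45a and Phlda3 ran opposite at -0.68.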

How the data were processed

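Single cells of mouse back skin were measured in 3 libraries by 10x Genomics 3' v3.1 chemistry after digestion with collagenase I and trypsin, per the labels. The values used are the deposited raw UMI counts per gene and barcode, made by the authors with Cell Ranger 6.1.2 and mm10, per the submitters' processing notes. Which annotation release was counted, and whether introns were, is not given in the sources. Gene positions are from GENCODE vM21 on mm10. No other unit was used.

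Cells with at least 500 genes and under 15% mitochondrial UMIs were kept. Doublets were called per library by Scrublet at its default threshold (scanpy 1.11.5), and 301, 356 and 123 were removed from the 2-week knockout, 3-week knockout and control. Libraries were clustered together with no correction: 2000 variable genes without the 9 genes described, 30 principal components, 15 neighbours, Leiden at resolution 1 (leidenalg 0.10.2), which gave 31 clusters. Clusters were named where 3 or more markers were each seen in 10% of cells and the score led that of any other class by 0.25. A named cluster also needed 50 cells, and no other class could have more markers among its 10 leading genes. A cluster of low depth needed a marker of its class among those genes. Cycling cells needed a score of 1.5. These rules were set after the clusters were seen, and names are likenesses. UMIs were summed per class and library and scaled to CPM. Intervals are exact Poisson for CPM and exact conditional for ratios, and cover counting error only. With 1 library per group there was no test: past 1.5-fold was counted, with at least 50 UMIs over both libraries and 50 cells in each. The step was tested on simulated data that held counting error only, so that test does not cover differences between libraries or in the mix of clusters.

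All 9 genes are named. Of each list, at most 4 with the largest ratios in either direction were to be named per class. The genes and lists were chosen with earlier results of these data known. Tnfrsf10, Tp53rk and H2ax of the lists and the marker Krt85 were not found by symbol. Alternatives were other filters, scalings, weights, depths, clusterings and folds.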

Additional observations from a re-analysis of the deposited data

Results flagged for a closer look

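Some genes differed from control in opposite directions in different classes, past 1.5-fold each way. The differences between these classes were not tested, and each value compares 1 library with 1 library. Gadd45a had ratios to control of 1.85 in fibroblast-like cells and 0.393 in melanocyte-like cells at 2 weeks, the second from 29 UMIs in the 2-week knockout and 47 in control. In those melanocyte-like cells the 8 basal markers summed to 8386 CPM in the 2-week knockout and 4558 CPM in control, the 6 melanocyte markers to 5401 and 10221 CPM, and 20.4% of all genes were past 1.5-fold lower; the part of these in the Gadd45a value was not tested. At 3 weeks Gadd45a had 1.78 in fibroblast-like cells and 0.2799 in bulge-like cells. Cdkn1a had 1.86 in Langerhans-like cells and 0.552 in the cluster led by Nppc and Gpha2 at 3 weeks. Sesn2 had 1.69 in Langerhans-like cells and 0.284 in blood endothelial-like cells at 3 weeks, the second from 15 UMIs in the 3-week knockout and 48 in control. Bax had 2.20 in dermal papilla or sheath-like cells and 0.607 in T or NK-like cells at 3 weeks. In each of these pairs 1 value was no longer past the limit under an alternative. With cells thinned to 2000 UMIs, Gadd45a in fibroblast-like cells was 1.471 at 2 weeks and 1.215 at 3 weeks. When each cell weighed the same, Cdkn1a and Sesn2 in Langerhans-like cells were 1.425 and 1.43. Bax in T or NK-like cells was 0.814 with finer clusters.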

How the results depend on the processing

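The counts at 1.5-fold were 13 lower and 3 higher pairs at 2 weeks, and 28 lower and 8 higher at 3 weeks. At 2 weeks the higher count was 7 with cells thinned to 2000 UMIs, 5 at Leiden resolution 2, 9 with a filter of 20 UMIs and 0 with a filter of 200 UMIs. At 3 weeks the higher count was 15 with a filter of 20 UMIs, 3 with a filter of 200 UMIs and 5 over the classes compared in both comparisons, an alternative chosen after seeing the data. With a fold of 2, 2 pairs were lower and 0 higher at 2 weeks, and 6 were lower and 1 higher at 3 weeks. For the filters, thinning and finer clusters only the higher counts are given here. No share over all genes stands beside the counts under other settings, so they cannot be read against the shares given at 1.5-fold. The filters and the fold change the counts by their construction; for thinning and finer clusters the cause was not tested. No called ratio changed direction under these alternatives. Of 52 called ratios, 46 stayed past the limit with clusters weighed as in control, and of 37 that could be ranked after thinning, 29 did; thinning left out 508, 501 and 152 cells of the 2-week knockout, 3-week knockout and control. No paired analysis was possible because each group has 1 library, and for the same reason no library could be left out. Counting depth limits small classes: the 0.284 of Sesn2 in blood endothelial-like cells at 3 weeks rests on 15 UMIs in the 3-week knockout.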
